A study of Mus musculus with 8 samples.

Results

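Ribosome-bound RNA of control hippocampal neurons was ranked by signal on the 4 WT arrays of the series, 1 array per mouse, of 8 arrays in all. The WT mice were Ctcf wild type, carried Camk2a-Cre and the RiboTag allele of Rpl22, and were untreated C57BL/6 adults of at least 3 months. WT 1, WT 2 and WT 4 were male and WT 3 was female. The series' design text describes its controls as Ctcf loxP/loxP instead, and the genotype of the sample labels is used here. All 4 mice carry both the Cre driver and the tag. The RNA on the arrays came from tagged ribosomes, so the ranking is that of the pull-down and not of whole tissue. Input RNA of the pull-down was not used here. The CKO arrays were not used, and no genotypes were compared.

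RiboTag mice switch on an epitope-tagged copy of the large-subunit ribosomal protein RPL22 in cells that express Cre recombinase. Antibody against the tag then pulls down ribosomes with the mRNAs they were translating, and those mRNAs are called the translatome of the tagged cells. The Camk2a promoter drives Cre in excitatory neurons of the adult forebrain, which in the hippocampus are the pyramidal cells of the CA fields and the granule cells of the dentate gyrus. A level in such a pool depends both on the number of cells that hold an mRNA and on the amount in each, and these cannot be told apart in bulk RNA.

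Signals are given on a log2 scale relative to the 75th percentile of the array, so a value of 0 lies at that percentile. Each gene name was represented by its brightest probe, and names were ordered by the mean over the 4 arrays. This gave 35703 gene names, of which 22524 matched a RefSeq symbol. Percentiles run from 0 to 100, with 100 for the brightest name. Signals of different probes also depend on how well each probe hybridises, so the order is one of probe signals and not of molecule numbers. Of all names, 28169 or 78.9% were well above background on all 4 arrays by the scanner software's own call, and 4526 were on none. Among names with a symbol the share above background on all 4 was 78.7%.

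The 3 markers of excitatory neurons stood near the top. Camk2a, the alpha subunit of calcium/calmodulin-dependent kinase II, had signals of 5.86, 6.13, 6.05 and 5.82 on WT 1 to WT 4, with a mean of 5.96 ± 0.15 (SD, n = 4). This put it at rank 92 and percentile 99.7. Slc17a7, which encodes the vesicular glutamate transporter VGLUT1, had 4.19, 4.66, 4.41 and 4.72, or 4.49 ± 0.25, at rank 599 and percentile 98.3. Nrgn, which encodes the calmodulin-binding postsynaptic protein neurogranin, had 3.64, 3.75, 3.86 and 4.25, or 3.87 ± 0.26, at rank 982 and percentile 97.3. All 3 were well above background on every array. Slc17a7 and Nrgn rest on 1 probe each, whose first 30 of 60 bases are shown because they hold no repeat and no stretch shared with another gene name. Camk2a has a second probe, with a mean of 2.94, which is 3.03 below the first and of the repeat type described further on. The Nrgn probe lies at chr9:37352694-37352753 on the minus strand and the Slc17a7 probe at chr7:52430841-52430900 on the plus strand, by the mm9 coordinates of the files.
Nrgn: agccaagtccgtgccctttttagctcttca
Slc17a7: ttcaaggctcgcctaaccaattctacattt

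**Figure D1:**
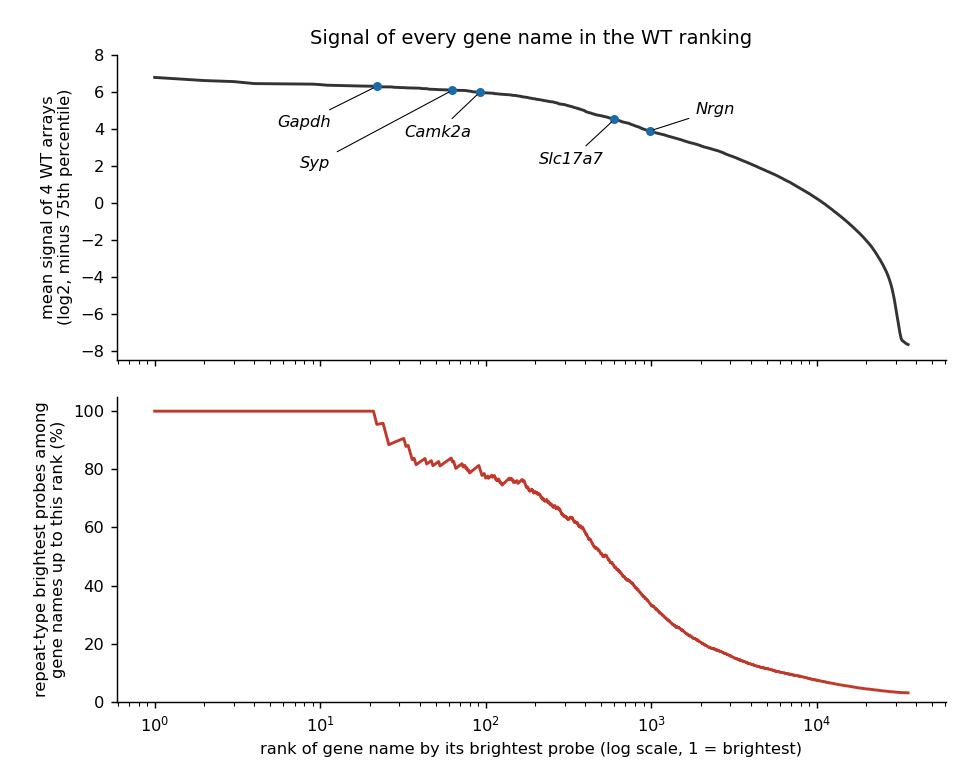
Upper panel: mean signal over the 4 WT arrays (log2, minus the 75th percentile of the array) of every gene name against its rank, on a log axis, with 5 names marked. Lower panel: the percentage of names up to each rank whose brightest probe is of the repeat type described in the text. The curve falls from 6.77 to -7.66, and the share falls from 90.0% in the brightest 30 to 3.15% over all names.

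The very top of the ranking was not made of typical neuronal transcripts. The brightest names were Ulk3, an autophagy-related kinase, at 6.77 ± 0.20, and Dennd4a at 6.60 ± 0.28, followed by Gm41468, Sgsh and Ubtf. The brightest probes of most of these names are simple repeats or hold sequence present in probes of many other genes. A probe was called repeat-type when it held a perfect tandem run of at least 16 bases with a unit of at most 6, or a 16-base word found in probes of at least 5 other gene names, a rule chosen after the data were seen. Of the brightest 100 names 77 had such a probe, as had 27 of the brightest 30, 191 of the brightest 300 and 333 of the brightest 1000. Over all names the share was 3.15%. The 21 names among the brightest 30 that match a RefSeq symbol include transcripts known from other tissues. Examples are Skint7, a thymus and skin gene, at 6.30 ± 0.25, and Slc10a1, the bile acid transporter of liver, at 6.25 ± 0.15.

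The probe sequences show what these names share. In the lines that follow, capitals mark the tandem run, or in Slc10a1 and Rn4.5s the stretch made of 16-base words present in probes of other gene names. Where a name appears a second time, the line holds another, dimmer probe of the same name. Each line is a 30-base part of a 60-base probe, as the files write it.
Dennd4a: TGTGTGTGTGTGTGTGTGTGTGTGTGTGTG
Skint7: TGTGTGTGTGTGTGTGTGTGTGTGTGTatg
Skint7, second probe: gtgcatttattattctgtactggaacattc
Lhx6: aACACACACACACACACACACACACACACA
Lhx6, second probe: tcttatttgtgtaataaataaagttaatgc
Itgam: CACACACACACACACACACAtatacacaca
Itgam, second probe: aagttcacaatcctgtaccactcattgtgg
Snap25: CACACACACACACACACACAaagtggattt
Vash1: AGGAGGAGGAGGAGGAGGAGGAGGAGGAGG
Ulk3: TTTCTTTCTTTCTTTCTTTCTTTCTTTCTT
Ulk3, second probe: caccctccttgctagaggctggatgtatgt
Siglech: tctgtctcAAAGAAAGAAAGAAAGAAAGAA
Siglech, second probe: acaacagttaaattcccttgcagagacatc
Slc10a1: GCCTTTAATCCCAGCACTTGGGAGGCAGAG
Slc10a1, second probe: cctacaaaggcattatgttatcactcgtca
Rn4.5s: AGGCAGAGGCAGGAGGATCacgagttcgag

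The Dennd4a probe holds a run of 37 bases of alternating T and G, and 77 other gene names have a probe that shares a 16-base word with it. For the Skint7 probe that number is 83, for Lhx6 38, for Itgam 39 and for Snap25 35. The Slc10a1 sequence is that of the B1 short interspersed element, a repeat found in many copies across the mouse genome, and it is shared with 7 other names. Of the probes with a run, 75 had the unit GT, with a median signal of 5.89, and 35 had AC, with 5.87. The 16 probes with AGG had a median of 6.07. The other units with at least 8 probes had medians from 0.59 to 4.87, among them AAG with 49 probes and 2.32. The 54379 probes of neither kind had a median of -2.12.

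Probes of one name differed most where the brightest was of the repeat type. Among the brightest 100, 50 names had several probes, and the median gap from the brightest to the second was 6.62 on the log2 scale. It was 7.44 in the 41 with a repeat-type brightest probe and 3.53 in the others. The gap was over 2 for 44 of the 50 and under 1 for 3. Over all 10693 names with several probes the median gap was 1.57, or 3.84 with a repeat-type brightest probe and 1.54 without. Some probes of one name also lie on different chromosomes by the files' mm9 coordinates. Among names with several placed probes this held for 10 of 49 in the brightest 100, or 20.4%, and for 4.10% of all names. For the repeat-type names of the brightest 100 it held for 8 of 40, or 20%, about the same share. The bright Ulk3 probe lies at chr5:44819058-44819117 and the dim one, with -0.14, at chr9:57443964-57444023, both on the plus strand.

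The cell type markers Lhx6, Itgam and Siglech, chosen after their values were seen, show how far a name can move with its probe. For Lhx6, a transcription factor of interneurons, the AC-run probe at chr2:35937644-35937703 on the minus strand had 5.65, 6.05, 6.12 and 5.59, at percentile 99.6. Its other probes had means of -6.87 and -7.62 and were not well above background on any array. Itgam, the microglial integrin CD11b, had 5.85 ± 0.29 by its AC-run probe and -0.72 and -1.23 by the others, and moves from percentile 99.6 to 62.3. Siglech, another microglial marker, had 4.23 ± 0.18 and then -2.22, and moves from 97.9 to 42.6. In each of the 3 genes the arrays of the repeat-type probe lie above all arrays of the other probes.

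**Figure D2:**
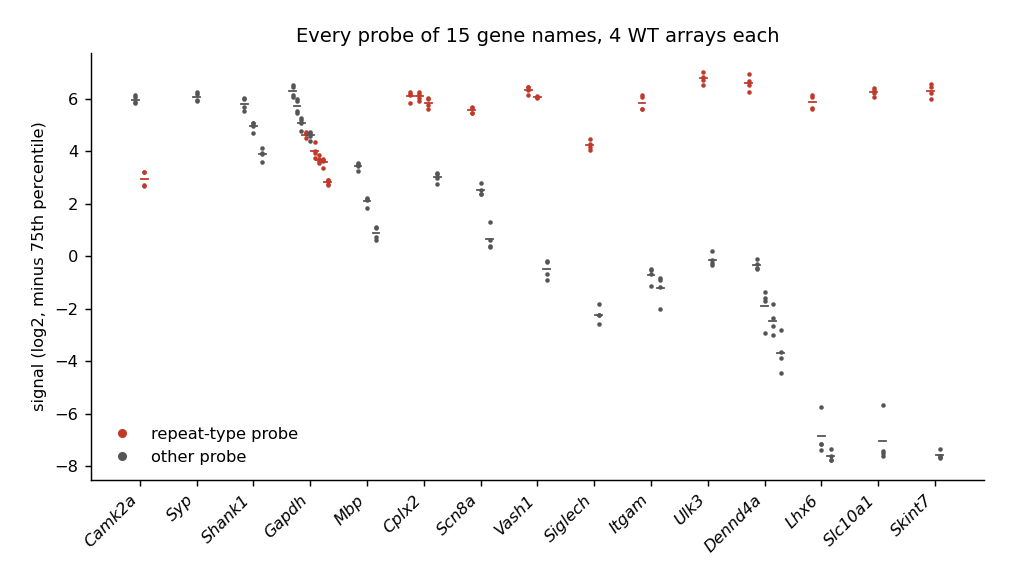
Signal of every probe of 15 gene names (log2, minus the 75th percentile of the array). Each column of points is 1 probe on the 4 WT arrays, the bar is its mean, and red marks repeat-type probes. Gapdh has 9 probes with means from 2.81 to 6.29, placed on several chromosomes, whereas Skint7 has 1 at 6.30 and 1 at -7.57.

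Without repeat-type probes 34880 gene names remained, and 23 of the original 100 stayed in the brightest 100. Of the others, 37 had no probe left and 40 were represented by another probe, with a median percentile of 52.2. In all, 19 fell below the 50th percentile. The brightest names were then Gapdh, Rn4.5s, Atp6v0c, Foxl2 and Rn18s. The Foxl2 probe is 81.7% G and C and shares a word with 1 other name, and the second Foxl2 probe had a mean of -2.02. Gapdh, the glycolytic enzyme, had 6.14, 6.50, 6.44 and 6.07, or 6.29 ± 0.22, and Atp6v0c, a membrane subunit of the vesicular proton pump, had 6.05, 6.43, 6.48 and 6.06, or 6.25 ± 0.24. Rn18s and Rn28s1, which name ribosomal RNAs, had 6.20 ± 0.25 and 6.19 ± 0.16. Rn4.5s, a small RNA related to B1 repeats, had 6.26 ± 0.20 and shares part of its probe with 1 other name. Camk2a then stood at rank 18.

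A stricter choice keeps probes that share no 16-base word with another gene name and hold no run. It too was chosen after the data were seen, and left 30602 names. The 30 brightest with a symbol, in order, were Atp6v0c, Rn28s1, Syp, Has2, Camk2a, Wbscr25, Nelfcd, Jmjd6, Inafm2, Trim71, Triobp, Shank1, Ralgps1, Fbxl12os, Hist2h4, Zfp628, Sept12, Pxmp4, Scaf8, Ptk2b, Calm2, Tubb4b, Dclk1, Ncdn, Park7, H2-Q4, Dnm1, Ccdc82, Hspa8 and AB124611. Has2, a hyaluronan synthase, stood just above Camk2a with 5.84, 6.26, 6.40 and 5.66, or 6.04 ± 0.34. Camk2a held rank 9, Slc17a7 rank 204 and Nrgn rank 454. Syp, the synaptic vesicle protein synaptophysin, had 5.92, 6.16, 6.27 and 5.95, or 6.08 ± 0.17. Shank1, a scaffold of the postsynaptic density, had 5.51, 6.04, 5.99 and 5.69, or 5.81 ± 0.25, and its second probe lay 0.86 lower. The 30 also held genes whose probes disagreed. Of 17 with several unshared probes, 6 had a second within 2 of the first and 11 had it more than 4 below. Trim71, a developmental RNA-binding protein, had 5.88 ± 0.22 by one probe and -0.44 by the other, and Triobp had 5.83 ± 0.23 and -4.21. Dclk1 is also one of the 11. The probes of Atp6v0c, Syp and Gapdh are shown, in that order, because they are bright and hold no tandem run. They lie at chr17:24301214-24301273 on the minus strand, chrX:7230297-7230356 on the plus strand and chr9:115314610-115314669 on the plus strand of mm9. The Gapdh probe shares a word with 1 other name. The other Gapdh probes are placed on other chromosomes, among them chr5 and chrX. Which transcripts the Gapdh probes measure, the chr9 probe shown included, was not tested.
Atp6v0c: tagttggtcttgtaaatgtgcagtgtccta
Syp: gcccttcggtattgtttgaagacccccctc
Gapdh: caaaagggtcatcatctccgccccttctgc

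At the boundary of the brightest 100, Jmjd6 at rank 99 and Gm10431 at rank 100 had 5.93 ± 0.25 and 5.93 ± 0.41. The next names, Pdcd4 and Atxn7, had 5.93 ± 0.24 and 5.93 ± 0.18. These 4 do not differ beyond their spread.

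Genes were next described in lists, by how many members lay in the brightest 10% of names. Among all names with a symbol that share was 10.8%, and their median percentile was 51.5. The lists and the percentiles that follow use the brightest probe of each name, and second probes are given for some genes only.

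Most genes of translation and energy supply lay in the brightest 10%. Of 77 measured genes for cytosolic ribosomal proteins, the protein parts of the ribosome, 65 lay in the brightest 10% and all 77 were above background on every array. Their median percentile was 94.6, with 94.01 to 95.05 on single arrays. Among the brightest were Rps16 with 4.95, 5.19, 5.19 and 4.95, or 5.07 ± 0.14, and Rpl10a at 4.54 ± 0.13. The dimmest was Rps19 at -0.49 ± 0.24. Rpl22, the protein that carries the tag, had 1.55, 1.55, 1.58 and 1.85, or 1.63 ± 0.15, at percentile 85.4. Ribosomal protein genes have many near-identical processed pseudogenes, and signal from such copies cannot be separated here. Of 13 translation factors 9 lay in the brightest 10%, led by Tpt1, Eif4a2 and Eef1a2 at percentiles 97.8, 97.8 and 97.2, with Eif4g2 lowest at 50.5. By its second probe Eif4a2 had a mean of 1.43. Eef1a2, the elongation factor form of mature neurons and muscle, had 3.87 ± 0.22. Its more widely expressed relative Eef1a1 had 3.21, 2.90, 2.86 and 1.06, and WT 4 lay far below the other arrays.

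All 13 genes of glycolysis and energy supply lay in the brightest 10%, with a median percentile of 97.4. After Gapdh came the enolase Eno2 and the aldolase Aldoa at percentiles 98.9 and 98.8, and the lowest was the malate dehydrogenase Mdh1 at 92.2. Of 75 nuclear genes of oxidative phosphorylation 56 lay in the brightest 10%. Cox8a, a small subunit of cytochrome c oxidase, had 4.98, 5.23, 5.13 and 5.03, or 5.09 ± 0.11, and the lowest was the succinate dehydrogenase subunit Sdhd at -0.34 ± 0.33. No name of the files matched the 13 mitochondrially encoded genes of the list. Of 15 chaperones and ubiquitin genes 11 lay in the brightest 10%, with Hspa8, Ubb and Hsp90ab1 first and Hspa4 last at percentile 85.7. Of 22 cytoskeletal genes 18 did, led by Actb at 5.67 ± 0.22 and Dnm1 at 5.40 ± 0.25. The lowest was the dynein heavy chain Dync1h1 at percentile 70.2.

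Genes of calcium signalling came next to those of glycolysis. Calmodulin binds calcium that enters at active synapses and turns on CaMKII, whose subunits are encoded by Camk2a to Camk2g. Of 18 genes of this list 16 lay in the brightest 10%, with a median percentile of 96.98. Calm2 had 5.52 ± 0.15 and Hpca, which encodes the hippocampal calcium sensor hippocalcin, had 5.32, 5.37, 5.36 and 5.23, or 5.32 ± 0.07. Of the kinase subunits Camk2a had 5.96, Camk2b 5.04 ± 0.28, Camk2d 3.02 ± 0.24 and Camk2g 1.62 ± 0.23. These are signals of different probes, and the second Camk2a probe, at 2.94, lies near that of Camk2d.

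Genes of both sides of the synapse were bright. Of 24 genes for vesicles and release 20 lay in the brightest 10%, with a median percentile of 96.0. The 3 at the top were Cplx2, Syp and Snap25, of which Cplx2 and Snap25 rest on repeat-type probes. Cplx2, which encodes the fusion clamp complexin 2, had 6.10 ± 0.17 by the brightest of 3 repeat-type probes. Its dimmest probe, at chr13:54485200-54485259 on the plus strand, had 3.00 ± 0.19, which gives percentile 95.1. Snap25, a membrane SNARE, has no other probe. The lowest was Unc13a, a priming factor, at percentile 79.9. Of 16 genes of the postsynaptic density 9 lay in the brightest 10%, with a median percentile of 90.6. Shank1 was followed by Psd at 5.09 ± 0.10 and by Cacng8, an auxiliary subunit of AMPA receptors, at 4.31 ± 0.21. The second Psd probe had a mean of 2.18. Dlg4, which encodes PSD-95, a main scaffold of these synapses, had -3.13, -1.91, -3.22 and -2.86 on its 1 probe, at percentile 35.5, the lowest of the list.

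Receptors and channels spread more widely. Of 22 glutamate receptor genes 8 lay in the brightest 10%, with a median percentile of 83.9. The metabotropic receptor Grm2 had 4.02 ± 0.19 and the NMDA receptor subunit Grin2a 3.56 ± 0.21. Among subunits of AMPA receptors, which carry fast excitatory currents, Gria1 had 2.33 ± 0.30 and Gria2 had 2.27 ± 0.53, which are signals of different probes. The kainate receptor subunit Grik1 was lowest, with -4.63, -6.64, -4.81 and -7.65, and was above background on 2 arrays. Of 14 GABA receptor genes 4 lay in the brightest 10%, led by Gabrb2 at 3.79 ± 0.17 and Gabbr1 at 3.59 ± 0.28, with Gabrg1 lowest at -4.22 ± 0.54. Of 22 voltage-gated channel genes 10 lay in the brightest 10%. The first of them, Scn8a and Kcna4, rest on repeat-type probes, and Scn8a moves from percentile 99.4 to 92.5 without them. The list had a median percentile of 88.2.

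Some neuronal mRNAs are known to travel into dendrites and be translated there. Of 12 such genes 8 lay in the brightest 10%, with a median percentile of 94.8. Camk2a, Shank1 and Psd led, and Dlg4 was lowest. Immediate early genes, which neurons switch on within minutes of activity, had a median percentile of 77.3. Of 21 such genes 6 lay in the brightest 10%. Nptx2, a secreted synaptic pentraxin, had 4.03, 4.14, 4.60 and 4.49, or 4.32 ± 0.27, and a mean of 0.84 by its second probe. Egr3 had 3.76 ± 0.25 and Arc had 3.33, 3.11, 3.18 and 3.24, or 3.22 ± 0.09. Fos had -1.67, -3.25, -2.58 and -3.32, or -2.71 ± 0.77, with WT 1 the highest. Egr1 had 1.87, 1.12, 1.05 and 1.32, again with WT 1 the highest. Klf4 was the lowest gene of the list and above background on 1 array. Of 20 neuropeptide and granin genes 3 lay in the brightest 10%, namely Cck at 4.07 ± 0.20, Chgb at 3.23 ± 0.10 and Scg2 at 2.40 ± 0.30. Trh was above background on no array.

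**Figure D3:**
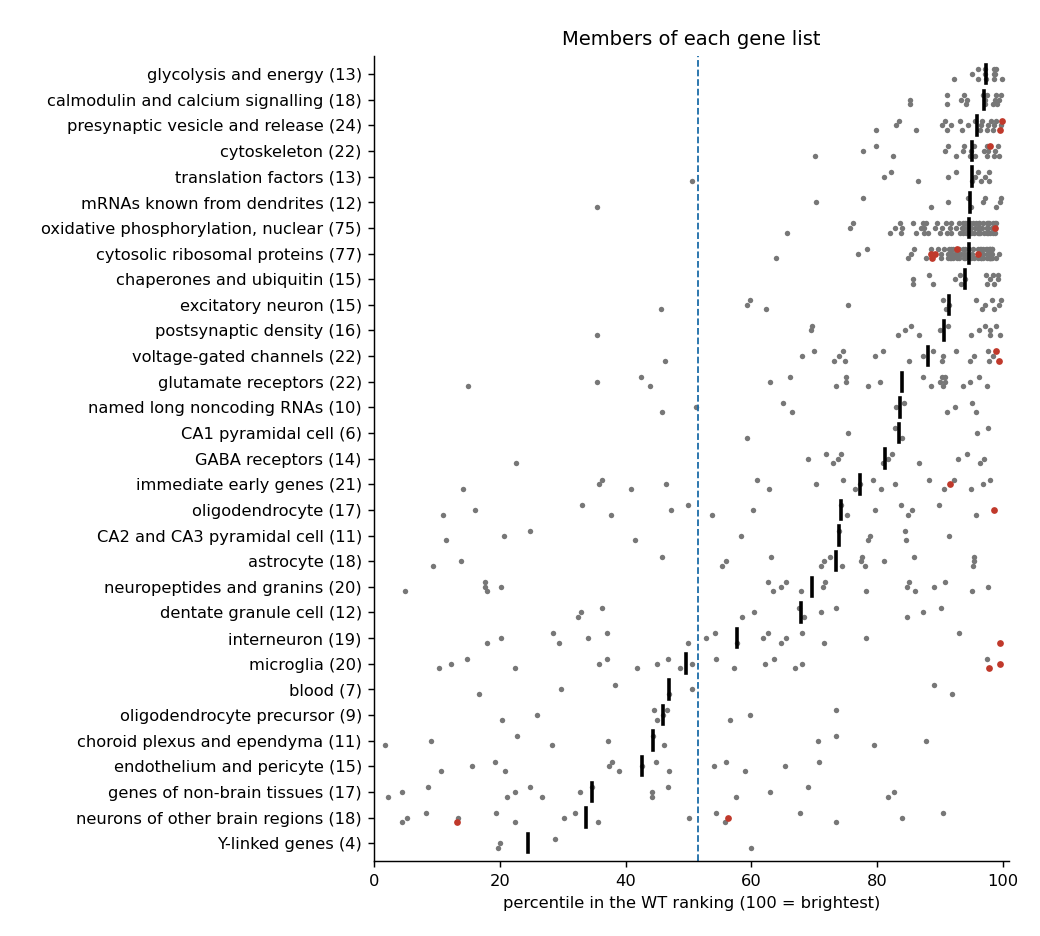
Percentile of every measured member of 31 gene lists in the WT ranking (100 = brightest), with the number of members in brackets. Black bars are list medians, red points are names with a repeat-type brightest probe, and the dashed line is the median of 51.5 over all names with a symbol. List medians run from 24.4 for Y-linked genes to 97.4 for glycolysis and energy.

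Markers of the hippocampal cell types were compared as lists in the same way. Of 15 genes of excitatory neurons 10 lay in the brightest 10%, with a median percentile of 91.6 and 91.03 to 92.60 on single arrays. After Camk2a came the tyrosine kinase Ptk2b at 5.55 ± 0.16 and the signalling protein Chn1 at percentile 98.7. Of 6 CA1 markers 2 lay in the brightest 10%, Mpped1 at 4.13 ± 0.07 and Wfs1 at 3.43 ± 0.14, and the list median was 83.5. The 11 markers of CA2 and CA3 had a median of 74.0, led by Necab2 at 2.52 ± 0.13, with Coch above background on no array. The 12 markers of dentate granule cells had a median of 67.9. Among them C1ql2 had 2.17, 2.38, 2.12 and 2.52, or 2.30 ± 0.19, Prox1, the transcription factor that sets granule cell identity, had 1.87 ± 0.22, and Calb1 was lowest at -3.07 ± 0.17.

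Interneurons use GABA and are not expected to carry the tag. Their 19 markers had a median percentile of 57.7, or 55.3 without repeat-type probes, and 2 lay in the brightest 10%. One of these is Lhx6 by its repeat-type probe. Gad1, which makes GABA, had 0.88, -0.32, -0.32 and 0.55, or 0.20 ± 0.62, and Sst had -0.43 ± 0.45. Vip was lowest at -5.13 ± 0.60 and above background on 2 arrays. The 18 markers of neurons from other brain regions had a median of 33.8, and 5 were above background on no array. The dopamine receptor Drd1 had -7.69, -7.49, -7.35 and -7.73. The highest of that list was Ppp1r1b, which encodes DARPP-32, at 2.36 ± 0.18.

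Astrocyte and oligodendrocyte markers had list medians below that of the excitatory neuron list, above that of dentate granule cells and near that of CA2 and CA3. The 18 astrocyte markers had a median percentile of 73.5, with 74.2 to 75.2 on single arrays, and 16 were above background on all arrays. That share is near those of all names with a symbol, 78.7%, and of the genes of non-brain tissues, 14 of 17. Slc1a2, the glutamate transporter GLT-1, had 3.35, 3.31, 3.35 and 3.31, or 3.33 ± 0.02, Ntsr2 had 3.30 ± 0.43 and Aldoc 3.27 ± 0.08. Gfap, the intermediate filament of astrocytes, had 0.46, -0.21, 0.06 and 0.25, whereas the gap junction gene Gja1 had -6.77, -7.48, -7.37 and -7.65 and was above background on no array. The 17 oligodendrocyte markers had a median of 74.3, with 70.3 to 76.2 on single arrays. Mbp, the myelin basic protein gene, had 3.56, 3.49, 3.42 and 3.22, or 3.42 ± 0.15. Ugt8a was above background on no array. How much RNA of untagged cells was in the pull-down was not tested, since no input RNA was used.

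The 20 microglial markers had a median of 49.5. Of these 3 lay in the brightest 10%, Itgam and Siglech by repeat-type probes and Csf1r at 4.04 ± 0.20, whose other probes had 0.89 and 0.22. Aif1 followed at -0.12 ± 0.20, and Gpr34 was above background on no array. Oligodendrocyte precursors, with Sox10 at 0.37 ± 0.18 and Neu4 at -4.58 ± 0.32, had a median of 46.0. The endothelium and pericyte list had 42.6, with Kdr at 0.13 ± 0.43, or -3.35 by its second probe, and Pdgfrb above background on no array. For choroid plexus and ependyma the median was 44.3, and for blood 46.9. In these lists Ttr, the thyroid hormone carrier of the choroid plexus, had 2.03, 2.47, 0.94 and 2.32, and Hba-a1, an alpha globin, had 2.60 ± 0.16. The alpha globins Hba-a1 and Hba-a2 were at percentiles 91.9 and 89.1, and the beta globins Hbb-b2, Hbb-bt and Hbb-b1 were at 46.9, 29.7 and 16.7.

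For comparison, 17 genes of non-brain tissues had a median percentile of 34.7, and 14 of them were well above background on every array. The sperm protamine Prm2 had 1.33 ± 0.48 and the cardiac myosin Myh7 1.20 ± 0.17, while albumin, Alb, was above background on no array. Lists of precursors, endothelium, choroid plexus, blood and microglia lie between this value and the 51.5 of all names with a symbol, and that of neurons from other brain regions, 33.8, lies below it.

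By type of RNA, 20116 names of protein-coding genes had a median percentile of 54.6 and 11.53% lay in the brightest 10%. The 1996 names of RefSeq long noncoding RNAs had 27.6, and 3.01% lay in the brightest 10%. Another 4610 names are probe sets for lincRNA regions, named by their coordinates, with a median of 58.0. That last value moves with the number of probes, 3.51 per name against 1.38 for protein-coding genes. Over single probes the median percentile among probes was 43.7 for lincRNA regions and 57.8 for protein-coding genes. Of 10 named long noncoding RNAs 4 lay in the brightest 10%. The imprinted transcripts Peg13 and Meg3 had 3.41 ± 0.12 and 2.71 ± 0.10, the neuronal Snhg11 had 3.23 ± 0.22, and the nuclear RNA Malat1 had -0.27 ± 0.11.

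The 4 arrays gave closely similar rankings. Pearson correlations between arrays, across gene names, which are not independent replicates, were 0.966 to 0.983. The highest was between WT 2 and WT 3, and WT 1 correlated with WT 3 and WT 4 alike, at 0.979 each. The median SD over the 4 arrays was 0.305 for names above background on all of them, and 83.3% had an SD under 0.5. Of these 28169 names 221, or 0.785%, had an SD over 1. Repeated spots of one probe on one array differed less. Of 399 probes with 10 spots, 313 were above background on all 4 arrays. Over these 313 the median SD within an array was 0.0956, against 0.290 between arrays for the same probes. The spread fell with signal, from a median SD of 1.06 in bin 2 of 10 equal bins by signal to 0.196 in bin 10, the brightest. Bin 1, none of it above background on all arrays, had 0.159. Of the brightest 100 names of single arrays, 71 were common to all 4 and 137 appeared in at least 1.

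WT 4 was the array farthest from the others in most names that had 1 array apart. It is also the only WT array on its slide, WT 2 and WT 3 share a slide and WT 1 is on another, so array and slide cannot be told apart. A name was counted as having 1 array apart when the gap from its extreme array to the next was large against its whole range (Dixon's criterion for 4 values, which chance meets in about 5% of names). This held for 1782 names above background, or 6.33%, and in 1226 of them the array was WT 4, lower in 847 and higher in 379. The other arrays accounted for 168 to 196 names each. In the median name WT 4 lay 0.18 above the mean of the arrays in bin 9, fell below it from bin 7 down and reached -0.65 in bin 2. Without WT 4 the median SD of names above background was 0.212, and without WT 1, WT 2 or WT 3 it was 0.317, 0.306 and 0.310. The count of names with an SD over 1 was 196 without WT 4, but 372, 344 and 428 without WT 1, WT 2 or WT 3, more than 1.5 times the 221 of all 4 arrays.

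**Figure D4:**
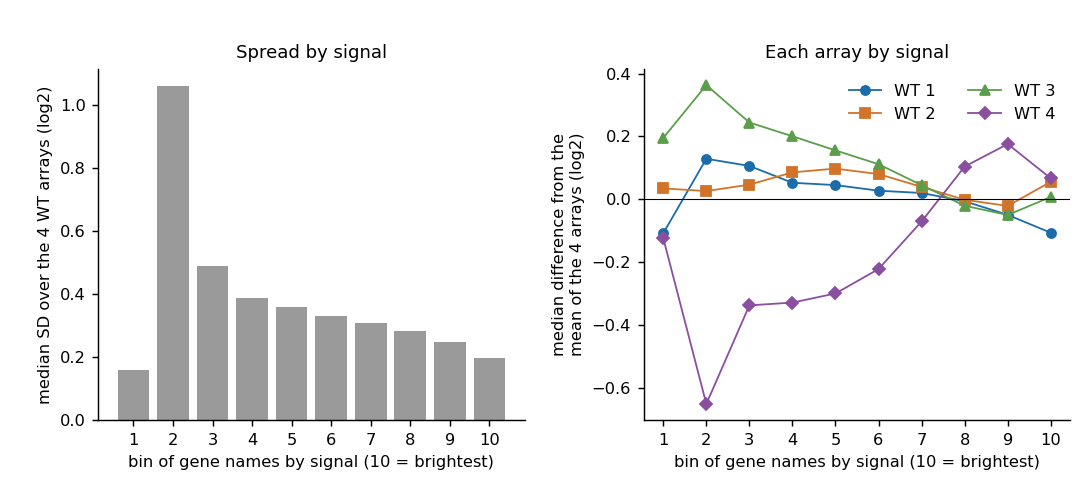
Left: median SD over the 4 WT arrays (log2) in each of 10 equal bins of gene names by signal, 10 being the brightest. Right: median difference of each array from the mean of the 4 arrays in the same bins. The SD falls from 1.06 in bin 2 to 0.196 in bin 10, and WT 4 runs from -0.65 in bin 2 to 0.18 in bin 9.

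Genes with the largest spread were dim, apart from Xist in the female. Xist, the RNA that silences 1 X chromosome in females, had 2.32 in WT 3 and -3.14, -3.37 and -3.43 in the males WT 1, WT 2 and WT 4. Its second probe was also highest in WT 3, with -1.47 in WT 3 and -6.41 to -7.66 in the males. The Y-linked genes ran the other way. Ddx3y had -7.30 in WT 3 and -1.64, -2.65 and -2.12 in the males. Kdm5d had -7.44 against -3.39, -4.03 and -3.69, and Uty had -7.52 against -3.48, -4.14 and -3.78. Eif2s3y had -2.30 in WT 3 and -0.01, -0.31 and -0.66 in the males, and was above background on all 4 arrays. The labelled sexes and these genes therefore match on every array, and sex and single mouse cannot be told apart for other genes, as there is 1 female.

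Of the other 9 named genes with the largest SD, 6 were highest in WT 2. These were Gm32819 with -0.73 in WT 2 and -4.34 to -4.86 elsewhere, the olfactory receptor Olfr1431, the MHC class II gene H2-Ab1, the opsin Opn1mw, the liver transporter Slco1b2 and Fam101b. H2-Ab1 had -3.87, -1.26, -2.87 and -5.24. Krt23 and 4833427F10Rik were lowest in WT 4, at -5.18 and -5.17. Ogn, which encodes the matrix protein osteoglycin, had -5.06 in WT 3 and -1.60, -2.07 and -1.73 in the others. At the other end, Ccdc53, Uhrf1bp1, Gid8, Gm5113, Tomm7, Hadha, Zkscan1, Asic4, Ndufb8 and Proca1 had the smallest SDs. Ndufb8, a subunit of respiratory complex I, had 4.51, 4.52, 4.49 and 4.52, and Tomm7, of the mitochondrial import pore, had 3.86, 3.88, 3.88 and 3.88. The second Tomm7 probe had a mean of -2.63.

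**Figure D5:**
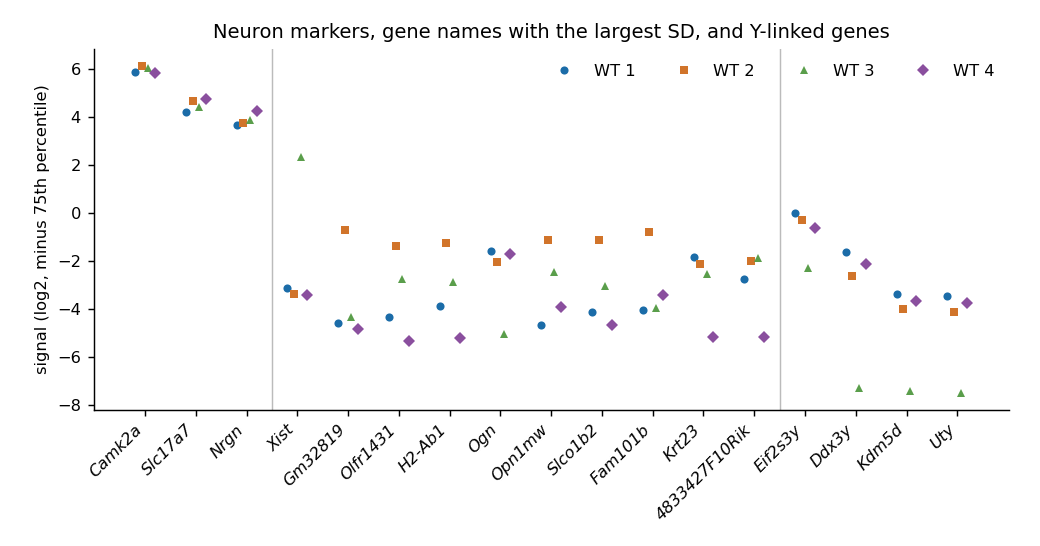
Signal on each WT array (log2, minus the 75th percentile of the array) of the 3 neuron markers, of the 10 named genes with the largest SD and of 4 Y-linked genes. WT 3, the female, is highest for Xist at 2.32 and lowest for the 4 Y-linked genes, and the markers Camk2a, Slc17a7 and Nrgn each span less than 1.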

How the data were processed

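RNA from tagged ribosomes was amplified (WTA2), labelled with Cy5 and hybridised to 1-colour Agilent arrays, per the labels' protocols. The deposited scanner files give the processed intensity per spot, from Agilent Feature Extraction 11.5 per the submitters' processing notes, background-subtracted and detrended per the file headers. The authors also deposited a table of intensity values per spot, whose normalization is not given in the sources used here. Within each array its ranks followed the processed intensity, and it was blank for 7359 to 9122 spots per WT array.

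Of 62976 spots 59305 were not controls. Flagged spots (110 to 202 per array) were left out, and none was saturated. Log2 intensity minus the array's 75th percentile was averaged per probe, which left 55668 probes on all 4 arrays. The 75th percentile of intensity was 4137 to 5095, and 77.9% to 81.5% of probes were well above background. The number of arrays limits the precision. Symbols came from RefSeq (GRCm38.p6, names only), 21070 by accession. Python 3.11.15, pandas 2.3.3 and limma 3.58.1 (normexp only) were used, and the ranking code was tested on simulated data.

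No test was run. The 32 gene lists and the members were chosen with earlier results of these data known. Named genes were the 3 markers, the 30 brightest with a symbol, the 3 brightest and the dimmest of each list, the 10 with the largest and the 10 with the smallest SD among names with a symbol above background on all 4 arrays, the 5 brightest without a symbol and ranks 99 to 102. Genes chosen after their values were seen include Lhx6, Itgam, Siglech, Dclk1, Ncdn, Tubb4b, Park7, Has2 and other names of the 30 brightest unshared probes, Eef1a1 and Egr1. Groups came from the sample titles, which call the mice biological replicates. Alternatives were median scaling, quantile normalization, normexp (offset 50) followed by quantiles, the deposited table, keeping flagged spots, restricting to probes above background on every array, averaging each gene's probes, and leaving out each array. Leaving out repeat-type or shared probes was added after seeing the data. A few genes and a probe sequence that this rule covers are not reported here.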

Additional observations from a re-analysis of the deposited data

Results flagged for a closer look

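Among 178 named genes, 10 had 1 array apart by Dixon's criterion, which chance meets in about 1 of 20 groups of 4. That is near the 6.33% of all names above background on all 4 arrays. Xist, Ogn, Gm32819 and Gm5113 were named for their large or small SD over these same arrays. In WT 3, the female, these were Xist at 2.32, above the males, and Kdm5d at -7.44 and Uty at -7.52, below them. WT 3 was also apart for Ogn at -5.06 and for Gm5113 at 1.04, where the other 3 arrays all round to 1.02. WT 4 was apart for Cep170b at 5.93, Atxn7 at 5.66 and Pcp4 at 1.91, low in the first 2 and high in Pcp4. Cep170b and Atxn7 rest on repeat-type probes. WT 1 was apart and high for Pdgfrb at -5.44, which was above background on no array, and WT 2 for Gm32819 at -0.73.

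The median percentile of 2 lists was apart and high in WT 4. It was 79.9 for CA2 and CA3 pyramidal cells, against 71.0 to 72.2 on the other arrays, and 48.2 for choroid plexus and ependyma, against 40.3 to 41.6. WT 4 is the only WT array on its slide, as WT 1 is on another, and the part of the slide was not tested.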

How the results depend on the processing

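Of the brightest 100 names, 90 to 100 stayed under scaling, background and filter alternatives and the deposited table, 94 to 96 with an array left out, 50 by the mean of a gene's probes, and 23 and 13 without repeat-type or shared probes. With the mean of probes Camk2a, Nrgn and Slc17a7 had percentiles 99.01, 98.3 and 99.1, with only probes above background 99.7, 96.5 and 97.9, and without repeat-type probes 99.95, 98.1 and 99.1. Camk2a had 99.7 in the deposited table. Leaving out an array gave 99.7 to 99.8, 96.9 to 97.4 and 98.2 to 98.4. The median SD was 0.311, and 0.216 to 0.320 with an array left out. An SD over 1 was found for 2458 names, for 72 with normexp and quantile normalization and 1532 in the deposited table, where the cause was not tested, for 221 above background, and for 1981 to 2597 with an array left out. Of 31 list medians, 29 moved by more than the spread between arrays with only probes above background, 24 in the deposited table, 20 by the mean of probes and 15 without repeat-type probes, and 0 or 1 under each other setting. The shifts ran from -14.4 (oligodendrocyte precursor) to 24.8 (Y-linked genes), both with only probes above background. Others were 11.6 for neurons of other brain regions in the deposited table and 7.68 for blood by the mean of probes. The 51.5 of names with a symbol was not recomputed by the mean of probes, so where blood stands against it there is not known. The order of lists had rank correlations of 0.975 to 1 with the main one. Low signal limits what can be said of dim names. No paired analysis was possible because no groups were compared.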
